A study of Mus musculus with 10 samples.

Results

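Messenger RNA for 6 clotting genes made by liver was followed across the livers of mice with raised or reduced activity of SREBPs, the transcription factors of lipid synthesis. The genes were F2 (prothrombin), F5 (factor V), F7 (factor VII), F9 (factor IX), F10 (factor X) and Proc (protein C). They were taken by name: each was matched to the probe sets that the platform annotation of the MG_U74Av2 array gives to that single gene, which yielded 9 probe sets. All 6 genes were found among 8251 genes measured. F2, F5 and F9 had 1 probe set each. F7, F10 and Proc had 2 each, and the probe set with the higher mean over the 10 arrays was used, with the other as a check.

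Liver RNA came from male mice in 5 groups. TgSREBP-1a and TgSREBP-2 mice carry a transgene for a human SREBP in its nuclear, active form. These mice and wild type littermates, all aged 12 to 16 weeks, were kept for 2 weeks on food rich in protein and low in carbohydrate, here called the high-protein diet. Scap-/- mice lacked SCAP, the escort protein that SREBPs need for activation, in liver. They carried the MX1-Cre transgene, whose interferon-inducible promoter is not specific to hepatocytes, and with their wild type controls they were 10 to 12 weeks old and ate Teklad chow. Both of these groups, controls included, received 4 injections of polyinosinic-polycytidylic acid, and livers were taken 14 days after the last one. RNA of 5 mice per group was combined into 1 pool, which was measured on 2 arrays. The tests therefore compare pools through the spread between hybridisations and carry no error between mice. The promoter of the SREBP transgenes is not given in the sources used here.

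Clotting proceeds as a chain of proteases that hepatocytes secrete as inactive precursors. Factor VII bound to tissue factor starts the chain, factor IX amplifies it, and factor X, with factor V as its cofactor, cuts prothrombin to thrombin, which turns fibrinogen into fibrin. Protein C is the brake: once activated by thrombin it inactivates factor V. Prothrombin, factors VII, IX and X and protein C need vitamin K for the carboxylation of their Gla domains, whereas factor V is not a protease and does not.

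Values are log2 signals as the authors deposited them, so a difference of 1 is 2-fold. Errors after a difference are the moderated standard errors of a limma fit of all 10 arrays, with n = 2 arrays per group. Called genes differed by at least 1.5-fold with a Benjamini-Hochberg adjusted p, taken over all 8251 genes, below 0.05. The arrays had medians of 6.37 to 6.4. Duplicate arrays differed by 1.5-fold or more for 55 to 151 genes in the 3 high-protein pools and for 0 to 6 in the 2 chow pools. The endogenous Srebf1 gene, which encodes SREBP-1, read 8.59 and 8.60 in Scap-/- and 10.07 and 10.14 in the pool of its controls. Its signals were 8.68 and 8.70 in high-protein wild type, 10.57 and 10.52 in TgSREBP-1a, and 10.01 and 10.04 in TgSREBP-2. Of 10 hepatocyte markers 9 were measured, and their summed linear signal was 44600 to 48900 on every array. Single markers moved within that sum: in TgSREBP-1a against wild type limma called Ttr (-1.37) and Tdo2 lower and Tat (0.77) higher, and 7 of the 9 had an unadjusted p under 0.05. The 6 clotting genes were brighter on average than 89.3% to 98.7% of genes.

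In TgSREBP-1a livers 2 of the 6 genes fell, Proc by 1.07 ± 0.11 (2.11-fold) and F5 by 0.71 ± 0.14 (1.64-fold), and none rose. F9, F10, F2 and F7 stood at -0.47, -0.39, -0.32 and -0.09, short of 1.5-fold. Of all genes, 2.59% were called lower and 4.78% higher in this comparison. With the adjusted p alone F9 would join them, against 6.74% of all genes, but not with the high-protein pools fitted alone (adjusted p = 0.0538). An unadjusted p under 0.05 was reached by 5 of the 6 and by 29.6% of all genes. In all 6, both TgSREBP-1a arrays lay below both wild type arrays, which held for 28.3% of all genes, and the median of the 6 was -0.43 against -0.03 over all genes. In TgSREBP-2 livers no clotting gene was called. Set directly against TgSREBP-2, 4 of the 6 were lower in TgSREBP-1a, namely Proc, F9, F5 and F10, and none was higher, where 2.95% of all genes were called lower and 2.24% higher. With the adjusted p alone 5 were lower, F2 included, against 5.84% of all genes. Both TgSREBP-1a arrays lay below both TgSREBP-2 arrays for all 6 and for 22.4% of all genes.

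**Figure D1:**
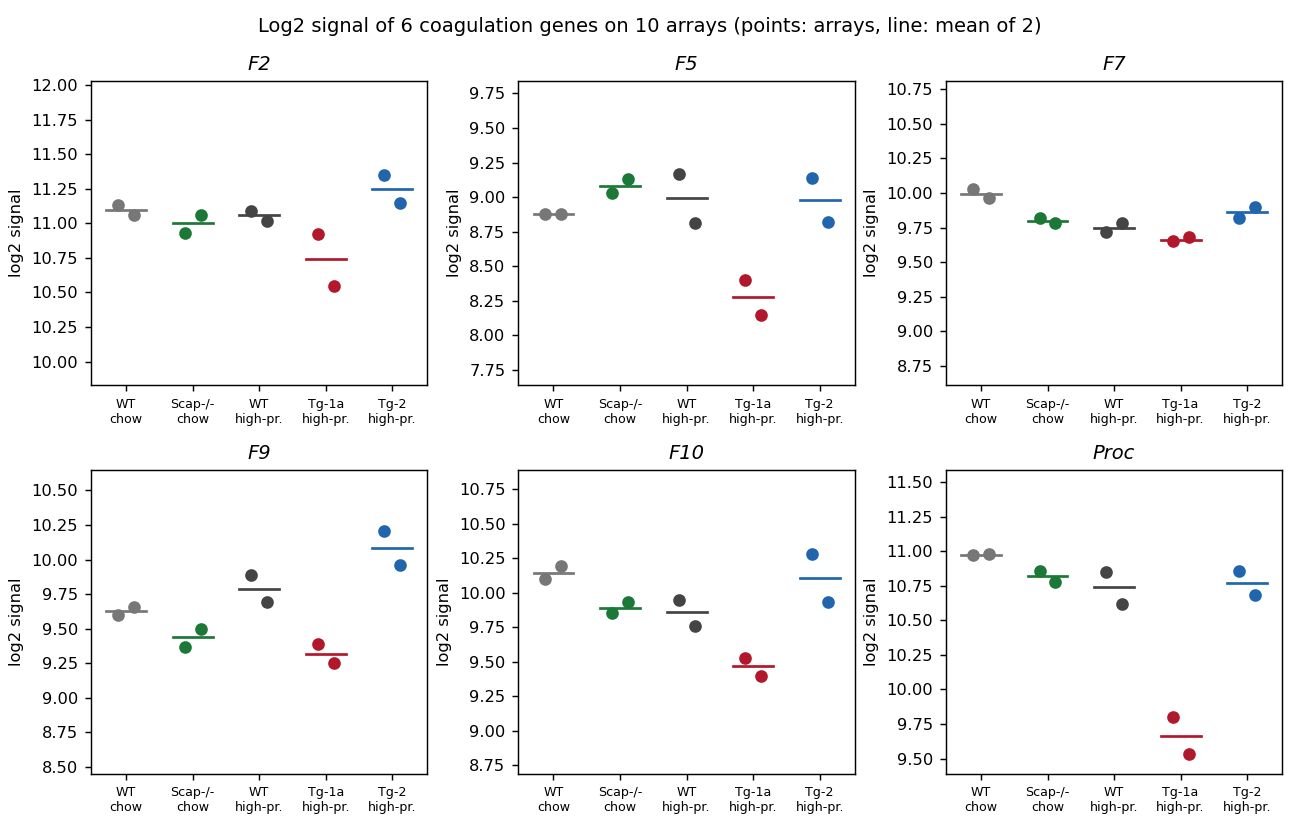
Log2 signal (vertical axis, the same span in each panel) of the 6 clotting genes in the 5 groups; each point is 1 array and each line the mean of the 2 arrays of a pool. The TgSREBP-1a arrays are the lowest of all 10 for F2, F5, F7, F10 and Proc, with Proc at 9.80 and 9.53.

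Factor VII starts the chain in complex with tissue factor. F7 was at 10.03 and 9.96 in chow-fed wild type, 9.82 and 9.78 in Scap-/-, 9.72 and 9.78 in high-protein wild type, 9.65 and 9.68 in TgSREBP-1a, and 9.82 and 9.90 in TgSREBP-2. Chow-fed wild type was highest and did not overlap with any other group. TgSREBP-2, Scap-/- and high-protein wild type, next in order, overlapped with their neighbours, and TgSREBP-1a was lowest without overlap. Against wild type F7 stood at -0.09 ± 0.08 in TgSREBP-1a (adjusted p = 0.479 in limma; 95% interval -0.26 to 0.08).

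The dimmer probe set of F7 gave another size. It read 8.69 and 8.65 in high-protein wild type, 8.10 and 8.01 in TgSREBP-1a, and 8.83 and 8.70 in TgSREBP-2, with 8.66 and 8.61 in chow-fed wild type and 8.50 and 8.59 in Scap-/-. On this probe set F7 fell in TgSREBP-1a by 0.62 ± 0.08, or 1.54-fold (adjusted p = 0.000447), and was lower than in TgSREBP-2 by 1.64-fold (-0.71 ± 0.08, adjusted p = 0.000217). Both probe sets had the same sign in these comparisons, and their signals correlated at 0.61 over the 10 arrays.

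Factor IX, the amplifying protease, showed the widest contrast between the transgenes among the members after Proc. F9 was at 9.89 and 9.69 in high-protein wild type, 9.39 and 9.25 in TgSREBP-1a, and 10.21 and 9.96 in TgSREBP-2. In the chow pools it was at 9.60 and 9.66 in wild type and at 9.37 and 9.50 in Scap-/-. TgSREBP-2 was highest, followed without overlap by high-protein wild type, chow-fed wild type and Scap-/-, and only Scap-/- and TgSREBP-1a overlapped. The 2 transgenic pools differed by 1.70-fold (-0.76 ± 0.11, adjusted p = 0.00103). Against wild type F9 stood at -0.47 ± 0.11 in TgSREBP-1a, with an adjusted p of 0.0153 but short of 1.5-fold. With the high-protein pools fitted alone the limma adjusted p was 0.0538. With single arrays left out in turn F9 ran from -0.56 to -0.37. In TgSREBP-2 it stood at 0.30 ± 0.11 (adjusted p = 0.188; 95% interval 0.05 to 0.54).

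Factor X is the protease on which the starting and amplifying arms converge. F10 was at 9.95 and 9.76 in high-protein wild type, 9.53 and 9.40 in TgSREBP-1a, and 10.28 and 9.93 in TgSREBP-2, against 10.10 and 10.19 in chow-fed wild type and 9.85 and 9.93 in Scap-/-. TgSREBP-1a was lowest without overlap, while the other 4 groups each overlapped with the next. F10 was lower in TgSREBP-1a than in TgSREBP-2 by 1.56-fold (-0.64 ± 0.12, adjusted p = 0.00591), but by less than 1.5-fold without replicate 2 of TgSREBP-1a (-0.58) or replicate 1 of TgSREBP-2 (-0.46), and with both its probe sets averaged (-0.53). Against wild type it stood at -0.39 ± 0.12 in TgSREBP-1a (adjusted p = 0.0525). The dimmer F10 probe set, brighter than 72.2% of genes, gave -0.41 ± 0.11 between the transgenes (adjusted p = 0.0419) and -0.11 ± 0.11 between TgSREBP-1a and wild type (adjusted p = 0.582).

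Factor V is the cofactor of factor X. F5 was at 9.17 and 8.81 in high-protein wild type, 8.40 and 8.15 in TgSREBP-1a, and 9.14 and 8.82 in TgSREBP-2, against 8.88 on both arrays of chow-fed wild type and 9.03 and 9.13 in Scap-/-. The TgSREBP-1a arrays lay below all others, and the other 4 groups overlapped in order. F5 fell in TgSREBP-1a by 0.71 ± 0.14 against wild type (adjusted p = 0.00598) and was 1.63-fold lower than in TgSREBP-2 (adjusted p = 0.00856). Without replicate 1 of wild type the first difference was -0.53, short of 1.5-fold (adjusted p = 0.0471). Without replicate 2 of TgSREBP-1a or replicate 1 of TgSREBP-2 the second was -0.58 or -0.54, with adjusted p = 0.058 and 0.0772. In TgSREBP-2 against wild type F5 stood at -0.01 ± 0.14, with a 95% interval of -0.32 to 0.31.

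Prothrombin is the precursor of thrombin, the protease that forms fibrin. F2 was at 11.09 and 11.02 in high-protein wild type, 10.92 and 10.55 in TgSREBP-1a, and 11.35 and 11.15 in TgSREBP-2, against 11.13 and 11.06 in chow-fed wild type and 10.93 and 11.06 in Scap-/-. TgSREBP-2 was highest and TgSREBP-1a lowest, both without overlap, and the other 3 groups overlapped with one another in order. F2 stood at -0.51 ± 0.12 between TgSREBP-1a and TgSREBP-2, with an adjusted p of 0.0219 and a fold of 1.43. It passed 1.5-fold without replicate 1 of TgSREBP-1a (-0.70) or replicate 2 of TgSREBP-2 (-0.62). Against wild type it stood at -0.32 ± 0.12 in TgSREBP-1a (adjusted p = 0.109). That value rested on single arrays: it was -0.51 (adjusted p = 0.0194) without replicate 1 of TgSREBP-1a and -0.14 (adjusted p = 0.475) without replicate 2.

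Protein C, the anticoagulant of the set, differed most. Proc was at 10.85 and 10.62 in high-protein wild type, 9.80 and 9.53 in TgSREBP-1a, and 10.86 and 10.68 in TgSREBP-2, against 10.97 and 10.98 in chow-fed wild type and 10.86 and 10.78 in Scap-/-. The TgSREBP-1a arrays were the lowest of all 10 by a wide gap. Chow-fed wild type was highest without overlap, and Scap-/-, TgSREBP-2 and high-protein wild type, in that order, each overlapped with the next. Proc fell in TgSREBP-1a by 1.07 ± 0.11 against wild type (adjusted p = 8.92e-05) and was 2.15-fold lower than in TgSREBP-2 (-1.10 ± 0.11, adjusted p = 9.6e-05). In TgSREBP-2 against wild type it stood at 0.03 ± 0.11, with a 95% interval of -0.22 to 0.28. Its call in TgSREBP-1a held in limma with any 1 of the 4 arrays left out (-1.21 to -0.94).

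The second probe set of Proc did not show the difference. It read 7.70 and 8.34 in high-protein wild type, 7.87 and 8.33 in TgSREBP-1a, and 7.63 and 8.35 in TgSREBP-2, so duplicates of 1 pool lay further apart than the pools. TgSREBP-1a minus wild type was 0.08 ± 0.25 on it (adjusted p = 0.88), and its signals correlated at -0.44 with those of the brighter probe set over the 10 arrays. With both probe sets averaged, Proc stood at -0.50 in TgSREBP-1a, short of 1.5-fold.

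**Figure D2:**
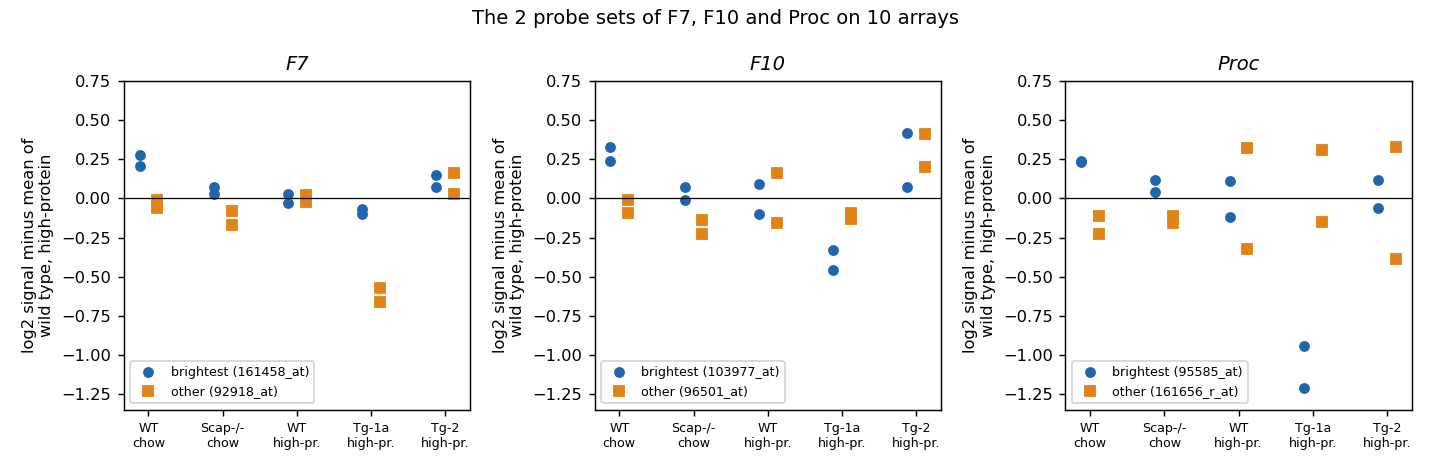
Log2 signal of both probe sets of F7, F10 and Proc on each array, minus that probe set's mean in high-protein wild type (vertical axis); circles are the brighter and squares the dimmer probe set. In TgSREBP-1a the F7 probe sets part (-0.09 and -0.62 on average), as do those of Proc (-1.07 and 0.08).

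In the 3 high-protein pools replicate 1 read higher than replicate 2 for F2, F5, F9, F10 and Proc. Comparing arrays of the same number therefore narrowed the spread. F5 in TgSREBP-1a differed from wild type by -0.77 between the arrays numbered 1 and by -0.66 between those numbered 2, and Proc by -1.05 and -1.10. F9 differed between the transgenic pools by -0.82 and -0.71, and F10 by -0.75 and -0.53. With the replicate number as a block within each diet set, adjusted p for F2 and F10 in TgSREBP-1a against wild type became 0.0167 and 0.00236, and that for F9 in TgSREBP-2 became 0.0169. Without a block and with the high-protein pools fitted alone, the limma adjusted p of these 3 differences were 0.211, 0.134 and 0.373. The block was chosen from these same data, and no label explains the replicate numbers. All 3 differences remained short of 1.5-fold and uncalled in both fits.

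**Figure D3:**
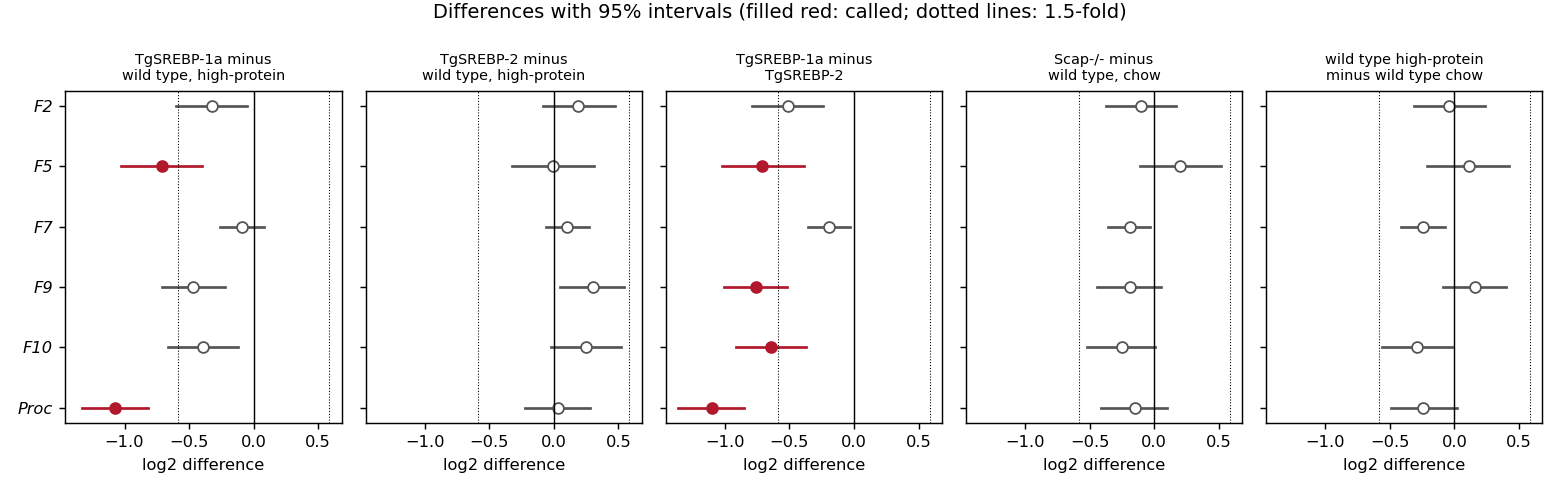
Log2 differences (horizontal axis) of the 6 clotting genes in 5 comparisons with 95% intervals from the limma fit; filled red points were called and dotted lines mark 1.5-fold. Proc and F5 are called in TgSREBP-1a against wild type, Proc, F9, F5 and F10 between the transgenic pools, and none in the other 3 comparisons.

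In TgSREBP-2 against wild type limma called 0 of the 6 genes, and 1, F9, had an unadjusted p under 0.05. Over all genes 2.57% were called and 17.1% had such a p. The median of the 6 was 0.15 against -0.02 over all genes, from -0.01 for F5 to 0.30 for F9. Both TgSREBP-2 arrays lay above both wild type arrays for F2, F7 and F9, and 20.5% of all genes showed that order. The signs of F7 (0.10) and Proc (0.03) turned when the arrays were quantile-normalized (-0.03 and -0.14).

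Loss of SCAP left the 6 genes within a narrow range. Against chow-fed wild type F10 stood at -0.25 ± 0.12, F7 at -0.19 ± 0.08, F9 at -0.19 ± 0.11, Proc at -0.15 ± 0.11, F2 at -0.10 ± 0.12 and F5 at 0.20 ± 0.14. Limma called 0 of 6, where 1.66% of all genes were called, and only F7 had an unadjusted p under 0.05 (adjusted p = 0.378), as 9.78% of all genes had. Both Scap-/- arrays lay below both wild type arrays for F7, F9, F10 and Proc, an order that 21.1% of all genes showed. The 95% intervals, which hold hybridisation error only, ran from -0.52 to 0.52 over the 6 genes and stayed inside 1.5-fold.

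The wild type pools differ in diet, age and injection, which cannot be told apart. Between them limma called 0 of the 6 genes, 2 of which had an unadjusted p under 0.05, while 5.62% of all genes were called, 1.28% higher and 4.34% lower, and 37.2% had such a p. F10 stood at -0.29 ± 0.12 and F7 at -0.24 ± 0.08 on the high-protein diet, the latter with an adjusted p of 0.0454, a mark that 14.4% of all genes passed downward, but a fold of 1.18, and with 0.03 on its dimmer probe set.

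F7 and F10 are neighbours. In RefSeq (GRCm38.p6) F10 is the next protein-coding gene after F7 on chromosome 8, with 11.3 kb between their start sites, and the next after F10 is Proz, a relative of protein C that was not analysed here. Their brighter probe sets correlated at 0.73 over the 10 arrays. Over the 15 pairs of members the correlation ran from 0.30 (F7 and F9) to 0.91 (F5 and Proc), with a median of 0.73. These points are pairs of arrays of 5 pools and share each array's processing, so the values are descriptive. Promoter sequences are shown for F5, F9 and F10, which were lower in TgSREBP-1a than in TgSREBP-2, and for F7, the neighbour of F10 that was not called on its brighter probe set. For Proc, also lower, no promoter sequence was available. Each is the 150 bases before the RefSeq start, 5′ to 3′ on the gene's strand, in GRCm38.p6, with motif matches in capitals.
F5 promoter, chr1:164151685-164151834, plus strand: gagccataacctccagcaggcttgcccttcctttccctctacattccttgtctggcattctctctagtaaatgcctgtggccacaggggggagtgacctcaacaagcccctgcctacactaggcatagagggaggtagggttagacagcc
F7 promoter, chr8:13025884-13026033, plus strand: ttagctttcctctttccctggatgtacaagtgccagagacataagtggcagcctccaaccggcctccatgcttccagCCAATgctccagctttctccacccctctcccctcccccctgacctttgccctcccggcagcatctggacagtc
F9 promoter, chrX:59999314-59999463, plus strand: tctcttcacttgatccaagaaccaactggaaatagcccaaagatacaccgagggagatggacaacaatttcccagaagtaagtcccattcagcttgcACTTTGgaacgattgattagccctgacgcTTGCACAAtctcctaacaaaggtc
F10 promoter, chr8:13037158-13037307, plus strand: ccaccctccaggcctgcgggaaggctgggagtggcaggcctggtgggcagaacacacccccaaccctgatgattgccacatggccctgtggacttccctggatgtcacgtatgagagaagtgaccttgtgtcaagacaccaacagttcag

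The 250 bases before the start of F2, F5, F7, F9 and F10 were searched on both strands for 7 motifs, and overlapping matches were allowed. Only the exact letters given here were searched, so a promoter without a match may still hold another form of the site. Proc was not searched, because the promoter reference held no entry for it. ACTTTG, part of a site bound by the hepatocyte factor HNF4, was found in F9 at -53 to -48 and in 12.6% of 32851 promoter windows of that length. TTNNGCAA, a site of the C/EBP family, was found in F9 on the minus strand at -24 to -17 and in 9.6% of windows. CCAAT was found in F7 at -73 to -69 and in 33.8% of windows. The sterol regulatory element of the form TCACNCCAC, present in 1.1% of windows, was not among the letters of these 5 windows, and neither were CACGTG (6.0%), GTTAAT (6.4%) and TATAAA (12.4%). No match overlapped with another motif's.

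The rest of the clotting system was read from 6 lists of 41 genes, of which 33 were measured. In TgSREBP-1a against wild type 7 of the 33 fell and none rose, with a median of -0.18. Of all genes 2.59% were called lower and 4.78% higher there, with a median of -0.03. Between the transgenic pools 7 were lower in TgSREBP-1a and none higher, where 2.95% of all genes were called lower and 2.24% higher. Limma called 0 of 33 in TgSREBP-2 and 0 of 33 in Scap-/-, each against its wild type, and in each 6 had an unadjusted p under 0.05. Of all genes 2.57% and 1.66% were called in these comparisons, and 17.1% and 9.78% had such a p. In TgSREBP-1a against wild type 29.6% of all genes had such a p. The same shares stand beside the counts of the lists and markers below.

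Among clot-forming genes Fgg, the fibrinogen gamma chain, fell in TgSREBP-1a by 0.67 ± 0.13 (1.59-fold), and F13b, the carrier subunit of the clot-crosslinking factor XIII, fell by 0.64 ± 0.12 (1.56-fold), which makes 2 of 4 measured. Both were short of 1.5-fold without replicate 2 of TgSREBP-1a (-0.49 and -0.55), Fgg also without replicate 1 of wild type (-0.52) and F13b also with 32 added before log2 (-0.57). F13b was called lower than in TgSREBP-2 as well, but not without replicate 1 of TgSREBP-2 (-0.57). The other fibrinogen chains Fgb and Fga stood at -0.56 and -0.27. Fgb was the 1 gene of the 33 called higher in high-protein wild type than on chow (0.73 ± 0.13, 1.66-fold). In the contact list 1 of 4 fell, Klkb1, plasma prekallikrein, from 7.42 and 7.55 in wild type to 6.72 and 6.76 (-0.75 ± 0.09, adjusted p = 0.000176). It was also lower in high-protein than in chow-fed wild type (-0.61 ± 0.09), a difference short of 1.5-fold after median centring (-0.58) or quantile normalization (-0.54), with 32 added before log2 (-0.53), and without replicate 1 of high-protein (-0.54) or replicate 2 of chow-fed wild type (-0.57). F12, factor XII, stood at -0.26, Kng1, kininogen, at 0.31 and F8, the cofactor of factor IX, at 0.06. F8 was below the array medians in both pools, at 6.28 and 6.10 in wild type and 6.28 and 6.23 in TgSREBP-1a.

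Of 10 measured anticoagulant genes 2 fell. Serpina10, the protein Z-dependent inhibitor of factor X, read 10.44 and 10.26 in wild type and 9.23 and 8.98 in TgSREBP-1a, a fall of 1.24 ± 0.11 (2.36-fold, adjusted p = 3.15e-05). Serpind1, heparin cofactor II, fell by 0.96 ± 0.10 (1.94-fold). Pzp, a broad protease inhibitor, stood at -0.47 with an adjusted p of 0.00192, and Procr, the protein C receptor, at 0.22. Procr was dim, at 4.34 to 4.63 on all arrays. In the fibrinolysis list 2 of 6 fell, Serpinf2, the inhibitor of plasmin, by 1.03 ± 0.10 (2.04-fold) and Hrg, a plasminogen-binding glycoprotein, by 0.61 ± 0.10 (1.52-fold). Serpinf2 had a dimmer probe set as well, on which it stood at -0.26, and with both averaged its call against TgSREBP-2 was lost (-0.47). Hrg was short of 1.5-fold without replicate 2 of TgSREBP-1a (-0.56) or replicate 1 of wild type (-0.50). Plg, plasminogen itself, stood at -0.53 (1.44-fold, adjusted p = 0.0025).

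The vitamin K and secretion list held no call in TgSREBP-1a against wild type in limma, 0 of 5, with 2 at an unadjusted p under 0.05. Ggcx, the carboxylase that modifies the Gla domains, stood at -0.51 ± 0.10 (adjusted p = 0.0052) and Lman1, a cargo receptor for factor V, at -0.47 ± 0.11. Ggcx was lower in TgSREBP-1a than in TgSREBP-2 by 1.58-fold (-0.66 ± 0.10), short of 1.5-fold without replicate 1 of TgSREBP-2 (-0.54) or with 32 added before log2 (-0.48). Vkorc1, which recycles vitamin K, stood at -0.28 and Mcfd2, the partner of Lman1, at 0.19. Of the 4 measured genes of initiation and receptors limma called 0, and 0 had an unadjusted p under 0.05: F3, tissue factor, stood at -0.05, Vwf, von Willebrand factor, at -0.17, and the thrombin receptors F2r and F2rl2 at 0.12 and 0.04. F3 and F2rl2 were dim, at 5.18 to 5.60 and 5.51 to 5.86 against array medians of 6.37 to 6.4. Differences at such levels are weak evidence of no change.

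Secreted liver proteins outside clotting were set beside these. Of 13 measured, 4 fell in TgSREBP-1a, against 2.59% of all genes, with a median of -0.36. Itih4, Itih3 and Itih1, heavy chains of the inter-alpha-trypsin inhibitor family, stood at -1.46 ± 0.11, -1.40 ± 0.10 and -0.96 ± 0.11, and Ttr, the thyroxine carrier, at -1.37 ± 0.10. Alb, serum albumin, stood at 0.27 ± 0.08. In TgSREBP-2 limma called 0 of 13, with 5 at an unadjusted p under 0.05, as 17.1% of all genes had.

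**Figure D4:**
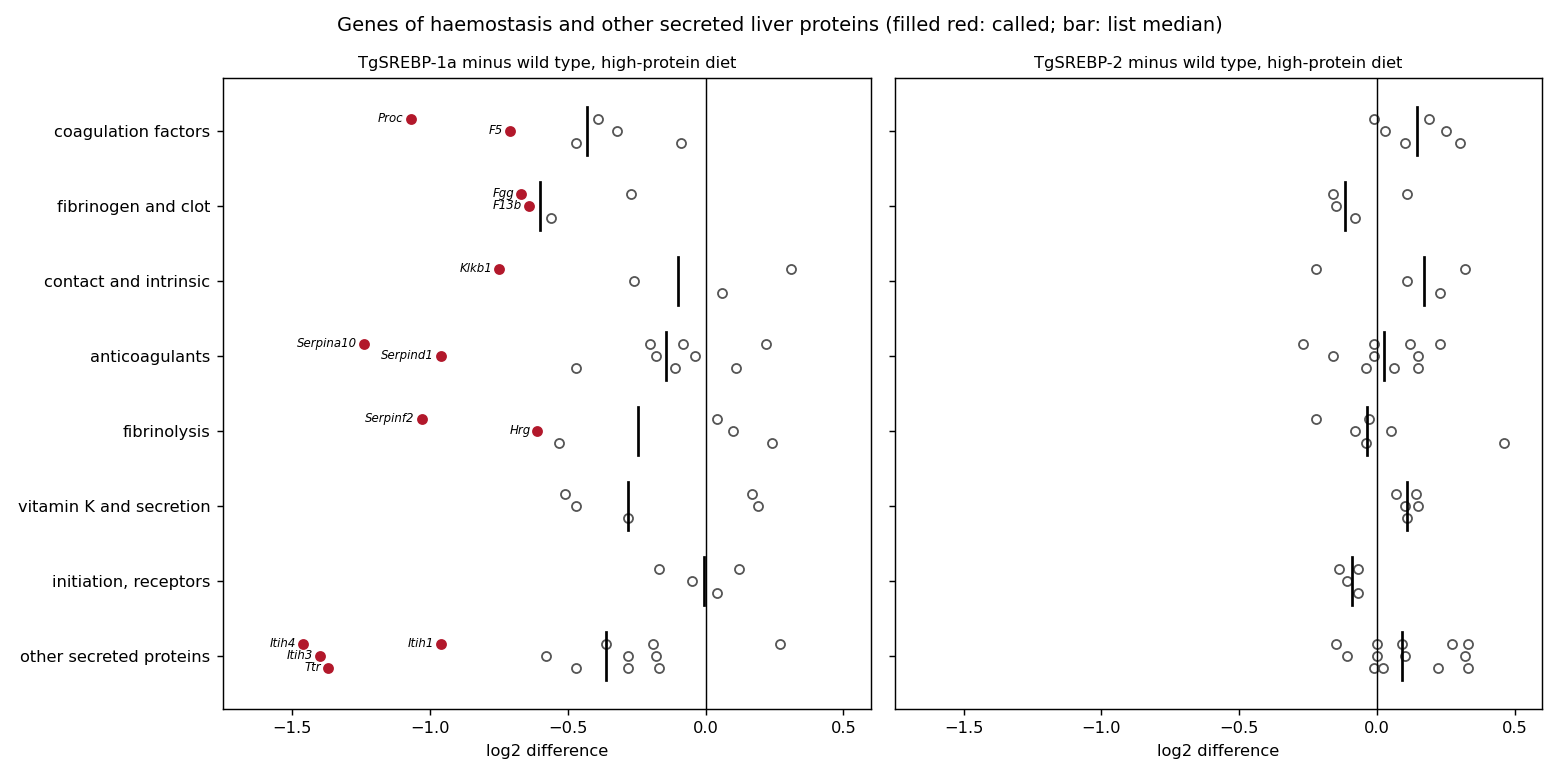
Log2 differences (horizontal axis) of genes in 7 clotting lists and 1 list of other secreted liver proteins, in TgSREBP-1a (left) and TgSREBP-2 (right) against the same wild type pool; each point is a gene, filled red and named where called, and bars are list medians. The medians of the 6 clotting factors are -0.43 and 0.15.

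Markers of other cells also differed between the pools. In TgSREBP-1a all 7 measured exocrine pancreas markers fell against high-protein wild type. Their summed linear signal was 1310 to 1350, against 16200 on both arrays of that wild type and 21700 to 22100 in TgSREBP-2. In Scap-/- all 7 fell as well, with sums of 1800 to 1870 against 8000 to 8200 in chow-fed wild type. High-protein wild type had 6 of the 7 called higher than chow-fed wild type, where 1.28% of all genes were, and Reg1 stood at -0.50. TgSREBP-2 had 2 of the 7 called higher than high-protein wild type, Prss2 and Reg1. How RNA of these pancreas genes came into the liver pools was not tested. Of 10 macrophage markers 5 were called higher in TgSREBP-1a than in high-protein wild type, with sums of 4440 to 4660 against 2760 to 2770. In TgSREBP-2 3 were called higher, with sums of 3560 to 3830. That wild type pool was the lowest of the 5: sums were 4030 to 4290 in chow-fed wild type and 3930 to 4000 in Scap-/-. All 10 markers were lower in high-protein than in chow-fed wild type, and 4 were called, where 4.34% of all genes were called lower. Of 7 measured endothelial markers 2 were called higher in TgSREBP-1a than in high-protein wild type, Cdh5 and Lyve1. The sums were 1400 to 1430 against 1170 to 1180, with 1390 to 1480 in chow-fed wild type. Of 3 measured red cell markers Hba-a1 and Alas2 were called in opposite directions, with sums of 4180 to 4360 against 2790 to 3020. Red cell sums were higher still in TgSREBP-2, at 4580 to 4630, where Hba-a1 was called higher too (0.73). Of 6 measured stellate cell markers limma called 0, with 4 at an unadjusted p under 0.05 and sums of 903 to 1030 against 781 to 842. None of these markers was listed at 0, but this does not show detection, since the lowest value on any array was 2.68. Of 5 measured platelet markers, relevant because platelets store factor V, limma called 0 in TgSREBP-1a, with 1 at an unadjusted p under 0.05 and sums of 675 to 788 against 735 to 790. The part of other cells in the differences of clotting genes was not tested. In such bulk RNA fewer cells of a type and less RNA per cell cannot be told apart.

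The genes whose signals followed each clotting gene most closely over the 10 arrays were taken from 1380 genes whose group means spanned at least 0.6. F9 was closest to Hrg (0.99), Ppp1r15b (0.98) and Apoa5 (0.97). Proc was closest to Tdo2, Lifr and Serpinf2 (0.99 each). F5 was closest to Apob (0.97), Sdc2 and Atxn2 (0.96 each), and F10 to Ggcx (0.96), Asgr1 (0.95) and Chpt1 (0.94). F2 was closest to Cyp3a13 (0.94), Car8 and Rsrp1 (0.92 each), and F7 to Irgm2 (0.91), Tap1 (0.89) and Ninj1 (0.88). These are Pearson correlations over 10 arrays of 5 pools, and arrays of 1 pool are not independent.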

How the data were processed

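The authors deposited log2 signals of 12488 probe sets on 10 arrays, made with RMA per the submitters' processing notes; the design text instead names Microarray Suite 5.0. Values ran from 2.68 to 14.03. The platform annotation gave 10833 probe sets a single symbol, of which 10817 were updated through RefSeq by gene ID. Left out were 66 controls, 396 probe sets with several symbols and 1193 with none. The brightest probe set stood for each of 8251 genes, a choice for 2073 of them.

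A limma fit (version 3.58.1, R version 4.3.3; lmFit, eBayes) covered all 10 arrays, with group means, no block and 5 residual degrees of freedom, and was tested on simulated data. All groups share each gene's variance, and the number of arrays limits the precision. Arrays with the same replicate number had deviations from their group means that correlated by 0.46, 0.61 and 0.60 within the high-protein pools, at 0.30 between the chow pools and at -0.48 to -0.12 across these sets. No label explains the numbers; they were taken to pair arrays within a set, and blocked values are given where they bear on a result.

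The 6 genes and all lists were chosen with earlier results of these data known. Named genes are the 6, Srebf1, up to 4 genes per list and comparison with the largest absolute difference, and the 3 best correlated genes per member; further list genes were named after their values were seen. Alternatives were the block, each array left out, median centring, quantile normalization, the mean of all probe sets, the dimmest 25% of genes left out, eBayes with trend and robust, fits within a set, 32 added before log2, and the other probe set.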

Additional observations from a re-analysis of the deposited data

Results flagged for a closer look

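The effects of the 2 transgenes differed for 4 of the 6 clotting genes, tested as TgSREBP-1a minus TgSREBP-2 in limma, which does not involve the wild type pool they share. Over all genes 2.95% were called lower in that comparison and 2.24% higher. The log2 difference was -1.10 for Proc, -0.76 for F9, -0.71 for F5 and -0.64 for F10, with adjusted p of 9.6e-05, 0.00103, 0.00856 and 0.00591. All 4 pairings of a TgSREBP-1a with a TgSREBP-2 array had this direction for each gene, an order that 22.4% of all genes showed. On its other probe set Proc stood at 0.11 ± 0.25 (adjusted p = 0.883 in limma). With all probe sets averaged 2 of the 6 genes were called. Without replicate 2 of TgSREBP-1a F5 and F10 both stood at -0.58. Without replicate 1 of TgSREBP-2 they stood at -0.54 and -0.46. Neither was called in either case. For F9 and F10 the 2 effects lay on opposite sides of wild type (-0.47 and 0.30 for F9, -0.39 and 0.25 for F10), none of them called. The TgSREBP-2 values varied with the arrays used: with 1 left out F9 ran from 0.17 to 0.42 and F10 from 0.07, without replicate 1 of TgSREBP-2, to 0.43, without replicate 2. After quantile normalization they were 0.13 and 0.12. The cause was not tested.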

How the results depend on the processing

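The 6 clotting genes in TgSREBP-1a against wild type kept their direction under every alternative run except the other probe set of Proc (0.08). With all probe sets of a gene averaged, 1 of the 6 was called in that comparison and 2 in TgSREBP-1a against TgSREBP-2. Leaving out 1 array gave 1 to 2 and 2 to 5 calls. With the replicate block within each set, 2 and 4 of the 6 were called, as without it, and no clotting gene's call changed in any comparison. The other probe set of Proc also turned its sign against TgSREBP-2 (0.11), in TgSREBP-2 (-0.03), in Scap-/- (0.04) and between the wild type pools (0.18), where those of F7 (0.03) and F10 (0.05) did so too. In TgSREBP-2, with 1 array left out in turn, F5 ran from -0.19 to 0.17 (0.16 without replicate 2 of TgSREBP-2, 0.17 without replicate 1 of wild type) and Proc from -0.08 to 0.14 (-0.06 without replicate 1 of TgSREBP-2, -0.08 without replicate 2 of wild type). Quantile normalization turned Proc there to -0.14 and F7 to -0.03. Between the wild type pools F5 ran from -0.07, without replicate 1 of the high-protein pool, to 0.29. None of these F5, Proc and F7 values in TgSREBP-2 and between the wild type pools was called. Quantile normalization changed the split of calls over all genes between the wild type pools from 106 higher and 358 lower to 139 and 277. Over single genes, 711 values kept direction and call, 31 lost the call, 4 gained it and 14 turned; the cause was not tested. A fit within 1 set could not be run for the wild type pools, which lie in different sets.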

Other observations

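Regulators of hepatocyte genes, 9 of 11 measured, were mostly below wild type in TgSREBP-1a, with a median of -0.33, and 1 was called. Cebpa, the C/EBP alpha factor, fell from 11.26 and 11.18 in wild type to 10.51 and 10.39 (-0.77 ± 0.08, adjusted p = 7.94e-05), and it was also lower than in TgSREBP-2 (-0.68 ± 0.08; -0.54, short of 1.5-fold, after quantile normalization). Hnf4a, the nuclear receptor HNF4 alpha, stood at -0.31 (adjusted p = 0.026), short of 1.5-fold. It stood at -0.22 in TgSREBP-2 and at -0.09 between the transgenic pools (limma adjusted p = 0.622). High-protein wild type lay above chow-fed wild type for Hnf4a (0.39 ± 0.08) and Cebpa (0.38 ± 0.08), neither called. Hnf4a read 8.79 and 8.72 in chow-fed wild type and 8.77 and 8.91 in TgSREBP-1a. Cebpa read 10.80 and 10.88 in chow-fed wild type, still above TgSREBP-1a. Onecut1, Foxa3 and Foxa1 stood at -0.42, -0.39 and -0.37, none with an adjusted p under 0.05. With the replicate block within each set their adjusted p became 0.0022, 0.00251 and 0.00819, all still short of 1.5-fold. Onecut1 and Foxa1 were dim, at 5.43 to 6.18 and 5.45 to 6.11 over the arrays, whose medians were 6.37 to 6.4. In TgSREBP-2 Foxa3 was the 1 regulator called, at 6.75 and 6.35 against 7.30 and 7.12 in wild type (-0.66 ± 0.15, adjusted p = 0.0291). That call was lost without replicate 2 of TgSREBP-2 (-0.45, adjusted p = 0.137), without either wild type array (adjusted p = 0.149 and 0.0599), with the high-protein pools fitted alone (adjusted p = 0.106) and with 32 added before log2 (-0.51). In Scap-/- limma called 0 of 9, with 1 at an unadjusted p under 0.05 and differences from -0.30 for Foxa2 to 0.03 for Hnf4a. Whether these regulators bear on the clotting genes was not tested.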
